A study of Rattus norvegicus with 8 samples.

Results

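The Ang II response of cells in which the long non-coding RNA Giver had been targeted is described here across genes. Its members were chosen by their labels alone, as the 4 arrays from cells given siRNA against Giver (siGiver) for 48 h and then exposed for 3 h to Ang II or to the buffer PBS, 2 arrays for each treatment, out of 8 arrays in all. The other 4 arrays held the same 2 treatments after a non-targeting siRNA (siNTC). All 8 came from vascular smooth muscle cells isolated from thoracic aortas (male Sprague-Dawley rats), grown for 2 passages in M199 medium with 10% fetal bovine serum, and Ang II was given at 100 nM. From each sample, 5 ug of total RNA was labelled by the one-cycle protocol and hybridised to an Affymetrix rat array. Whether both arrays of a group are of separate cultures is not stated, so a p-value reflects array-to-array spread, perhaps technical. The annotation names no Giver probe set, and depletion of Giver was not checked here.

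Ang II (angiotensin II) is a peptide hormone; it constricts arteries and raises blood pressure. In smooth muscle cells its type 1 receptor couples to G proteins, raises intracellular calcium and activates protein kinase C and the MAP kinases, in part by shedding ligands of the EGF receptor. Within hours these signals switch on early transcription factors and secreted factors, together with phosphatases and other inhibitors that limit the same signals. Giver is a nuclear long non-coding RNA of these cells that Ang II itself induces, and siRNA degrades a transcript through complementary base pairing.

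Values are log2 levels, and a difference of 1 is a doubling of signal within 1 probe set. A gene was called where limma's moderated test gave a Benjamini-Hochberg adjusted p under 0.05 over 11377 genes, and "rose" and "fell" are used only of called genes. Each ± value is a standard error (SE) from the fit, with 2 arrays per group. Leaving out each of the 8 arrays in turn kept the call of 185 of the 192 genes raised at least 1.5-fold and of 30 of the 36 lowered at least 1.5-fold, and a gene named below that lost its call is marked as such.

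In siGiver cells, 3 h of Ang II raised early transcription factors, inhibitors of MAP kinase and G-protein signalling, growth factors and genes of the plasminogen system, and its large effects were nearly all increases. Of the genes tested, 1852 (16.3%) were called, 1036 higher (9.11%) and 816 lower (7.17%), so that 55.9% of called genes were higher. Counts of list members below are to be read beside these shares. With each array's median subtracted the split was 1154 higher and 550 lower (67.7% higher). With 1 siGiver array left out, between 866 and 1156 genes were called, 549 to 760 higher and 317 to 407 lower, the fewest without siGiver Ang II replicate 2. At 1.5-fold or more, 192 genes rose (1.69%) and 36 fell (0.316%). At 2-fold or more there were 67 increases and 3 decreases, and at 4-fold or more 13 increases and no decrease. Both Ang II arrays lay above both PBS arrays for 26.7% of all genes and below both for 35.7%. The median difference over all genes was -0.028, with an SD of 0.225 across genes and a median SE of 0.060. In siNTC cells, 698 genes (6.14%) were called, 18 of them by an increase of 2-fold or more and none by such a decrease.

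**Figure D1:**
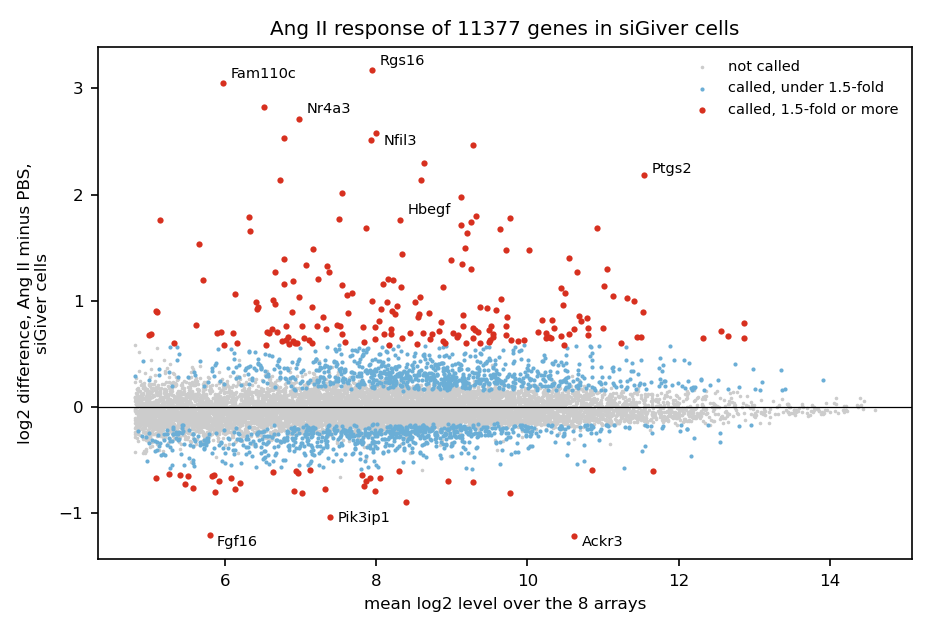
Difference between Ang II and PBS in siGiver cells (log2, y axis) against the mean log2 level over the 8 arrays (x axis), 1 point per gene. Of the 11377 genes, 192 lie in red above 0 and 36 in red below 0, and the increases reach 3.17 while the decreases stop at -1.21.

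The raised genes were spread evenly over levels. Of the 192, 4 equal bins of genes ordered by their siGiver PBS level held 47, 47, 49 and 49, from dimmest to brightest. The 36 lowered genes were more often dim, with 14, 10, 7 and 5 in the same bins, where the median SE was 0.086 in the dimmest and 0.049 in the brightest. Just inside the 1.5-fold line stood Klf5 at 0.59 (0.586, against a line of 0.585; its call was lost without siGiver PBS replicate 2 or siGiver Ang II replicate 1) and Otub2 at -0.59, and just outside it Upp1 at 0.58 and Tmem140 at -0.58. Where a raised gene had further probe sets above the filter, 62 of 72 such probe sets, of 58 genes, had the same sign and 54 were called higher, with none called lower. For the lowered genes all 19 further probe sets, of 8 genes, had the same sign and 13 were called.

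These differences are relative to the bulk of the genes on each array, and the poly-A and hybridisation control probe sets stood apart from that bulk in siGiver cells. The 24 probe sets for the bacterial poly-A control transcripts, which the one-cycle protocol adds to the RNA before labelling, averaged 8.70 and 8.73 on the PBS arrays and 8.23 and 8.03 on the Ang II arrays. All 24 were lower with Ang II, by a median of -0.57 (range -0.81 to -0.44), without overlap of the arrays. The siGiver PBS arrays lay above all 6 other arrays, and the siGiver Ang II arrays lay below all 4 siNTC arrays (8.24 to 8.37). In siNTC cells the median difference was 0.078. The 18 hybridisation control probe sets, whose transcripts are added after labelling, differed by a median of -0.24 in siGiver cells and 0.035 in siNTC cells. All 18 were lower with Ang II in siGiver cells, 17 of them without overlap of the arrays. Centring every array on the poly-A controls moved the median of all genes from -0.028 to 0.56, which put 11174 genes higher and 4 lower. That centring adds the same positive amount to every siGiver difference, so the 192 raised genes could only move further up. Of the 36 lowered genes, 4 stayed called lower. A fall below is therefore a fall against the bulk of genes. The source of the control shift was not tested.

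**Figure D2:**
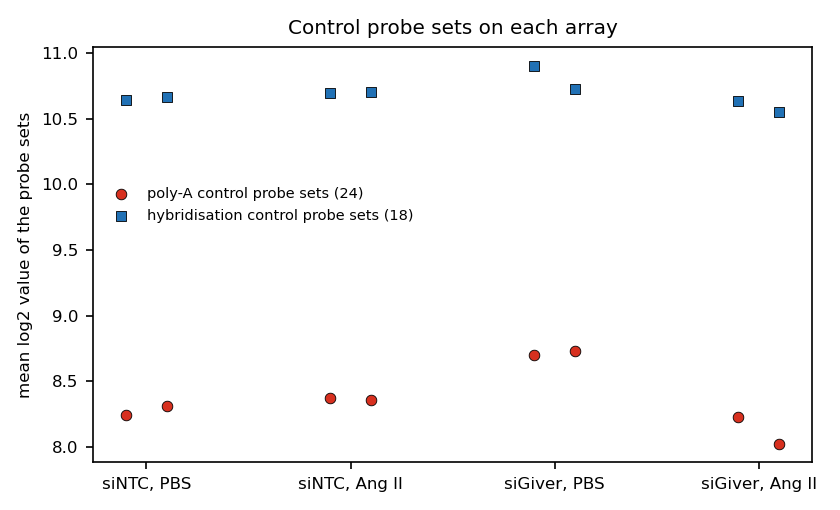
Mean log2 value of the 24 poly-A control probe sets (circles) and the 18 hybridisation control probe sets (squares) on each of the 8 arrays, by group. The poly-A controls lie at 8.70 and 8.73 on the siGiver PBS arrays and between 8.03 and 8.37 on the other 6.

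The arrays carried the markers of smooth muscle cells, and most of those of fibroblasts as well. All 10 smooth muscle markers lay above the filter on low values (4.81 log2), and their summed linear level was 32290 and 32510 on the siGiver PBS arrays and 33810 and 33450 on the Ang II arrays. All 7 adipocyte markers were below the filter, as were 7 of 11 endothelial markers (Pecam1, Vwf, Tie1, Tek, Kdr, Nos3 and Emcn) and 9 of 15 leukocyte markers (Ptprc, Csf1r and Itgam among them). The leukocyte markers Cd74 and Cd14 lay well above it, with means over the 8 arrays of 8.77 and 8.37. The endothelial sum moved from 780 and 763 to 1048 and 1045; Flt1, a receptor of vascular endothelial growth factors and a member of that list, rose, and the 3 other measured members did not pass the test. Of 9 fibroblast markers 8 lay above the filter, Lum at a mean of 12.41, so the filter alone does not set smooth muscle cells apart from fibroblasts. Fibroblast markers summed to 7786 and 7893 with PBS and 7308 and 6912 with Ang II, and of 8 tested only Pdgfra, a platelet-derived growth factor receptor, fell (by 0.48 ± 0.048, adjusted p = 0.00067). In these bulk samples fewer cells of a type and less of its RNA per cell cannot be told apart.

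Among early transcription factors, 2 of 3 Nr4a orphan nuclear receptors had large increases. Nr4a3 read 5.61 and 5.91 on the PBS arrays and 8.51 and 8.45 on the Ang II arrays, an increase of 2.71 ± 0.096 or 6.57-fold (adjusted p = 4.63e-06). Nr4a1 went from 6.77 and 7.09 to 9.43 and 9.45, an increase of 2.51 ± 0.10 (adjusted p = 7.59e-06). Both genes were separated between treatments by far more than the arrays of a treatment differed, while the third member, Nr4a2, stood at 0.07 and was not called. Other Nr4a3 probe sets gave 3.42 and 0.49, both called higher.

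Egr2 and Egr1, zinc-finger factors switched on by ERK signalling and serum response factor, were both raised. Egr2 read 7.73 and 7.76 on the PBS arrays and 10.02 and 10.07 on the Ang II arrays, an increase of 2.30 ± 0.059 (adjusted p = 1.35e-06). Egr1 read 10.36 and 10.30 on the PBS arrays and 12.03 and 11.99 on the Ang II arrays, an increase of 1.68 ± 0.047 (adjusted p = 1.89e-06). Egr3 (-0.15) and Egr4 (0.08) were not called, and the corepressor Nab2 rose by 0.26, a call lost without siGiver PBS replicate 1 or siGiver Ang II replicate 2. Serum response factor itself, Srf, rose by 0.49 ± 0.051.

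Of 14 measured members of the AP-1 and related leucine zipper list, 8 rose and none fell, with a median of 0.53 beside -0.028 over all genes. Fosl1, a Fos-family partner of Jun, read 8.75 and 8.75 on the PBS arrays and 10.48 and 10.46 on the Ang II arrays (difference 1.72 ± 0.044, adjusted p = 1.35e-06). Fos read 6.97 and 7.18 on the PBS arrays and 8.40 and 8.30 on the Ang II arrays (difference 1.27 ± 0.076, adjusted p = 5.42e-05), although a dimmer Fos probe set was not called at -0.27. Junb rose by 1.49 ± 0.077, Fosb by 1.19 ± 0.059, Atf3 by 0.94 ± 0.058 and Maff by 0.85 ± 0.045. Jun (0.54) and Mafk (0.51) rose less, and Jund (0.05), Batf (-0.06) and Jdp2 (-0.05) were not called.

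Other early response genes followed the same direction, 12 of 19 higher and 1 lower (median 0.49). Sgk1, a kinase downstream of phosphoinositide 3-kinase that regulates ion transport, read 6.78 and 6.97 on the PBS arrays and 8.88 and 8.90 on the Ang II arrays, an increase of 2.01 ± 0.069 (adjusted p = 4e-06). Arc, best known from neurons, rose by 1.66 ± 0.10, and Ier2, an early response gene, by 1.30 ± 0.047. The mRNA-destabilising proteins Zfp36 and Zfp36l2 rose by 1.16 ± 0.051 and 1.02 ± 0.046. Myc rose by 0.66 ± 0.044. Btg1, an antiproliferative gene, was the member called lower at -0.17, and its call was lost whichever array was left out.

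Nfil3, a leucine zipper repressor that also acts in the circadian clock, was among the 5 largest increases. It read 6.95 and 7.10 on the PBS arrays and 9.59 and 9.63 on the Ang II arrays, an increase of 2.58 ± 0.065 or 5.99-fold (adjusted p = 1.35e-06). Noct, the clock-regulated gene of nocturnin, rose by 1.98 ± 0.051, and the repressor Bhlhe40 by 0.87 ± 0.088. Of 15 measured clock genes 6 rose and 3 fell. Dbp, which binds the same sites as Nfil3, fell by 0.50 ± 0.067 (adjusted p = 0.00266), and Per3 by 0.37, a call lost without siGiver Ang II replicate 1. Per2 rose by 0.36, second probe sets of Per2 (-0.06) and Per3 (-0.05) were not called, and Per1 (0.17) was not called.

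Inhibitors of the pathways that Ang II activates rose strongly. Rgs16, a GTPase-activating protein that switches off Gq and Gi proteins, had the largest increase of all genes. It read 6.37 and 6.70 on the PBS arrays and 9.58 and 9.82 on the Ang II arrays, an increase of 3.17 ± 0.12 or 9-fold (adjusted p = 4.9e-06). Rgs2, a selective inhibitor of Gq, read 10.09 and 10.06 on the PBS arrays and 11.43 and 11.52 on the Ang II arrays (difference 1.40 ± 0.056). Rgs3 rose by 0.65 ± 0.052 (a dim second probe set not called at -0.11) and Rgs17 by 0.54 ± 0.083, with 4 other Rgs17 probe sets at 0.36, 1.45, 0.89 and 1.14, all called higher. The other 6 measured Rgs genes, Rgs4 (-0.03) among them, were not called, so the list's median was 0.06.

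Dual specificity phosphatases, which inactivate MAP kinases, were higher for 6 of 8 measured members and lower for none (median 0.59). Dusp5, a nuclear phosphatase of ERK, read 6.34 and 6.45 on the PBS arrays and 8.52 and 8.55 on the Ang II arrays, an increase of 2.14 ± 0.067 or 4.41-fold (adjusted p = 3.14e-06). Dusp6, its cytoplasmic counterpart, read 9.25 and 9.31 on the PBS arrays and 11.06 and 11.05 on the Ang II arrays, an increase of 1.78 ± 0.050 (adjusted p = 1.89e-06). For both, the 2 arrays of a treatment were close together and far from those of the other treatment. Dusp10 rose by 0.70 ± 0.084, Dusp7 by 0.62 ± 0.090, Dusp1 by 0.56 ± 0.045 and Dusp14 by 0.44 ± 0.058, while Dusp4 (0.09) and Dusp8 (0.21) were not called.

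Receptor tyrosine kinase inhibitors were also raised, 6 of 10 higher and none lower (median 0.46). Spry2, which restrains Ras activation downstream of growth factor receptors, read 8.38 and 8.40 on the PBS arrays and 10.21 and 10.06 on the Ang II arrays, an increase of 1.74 ± 0.067 (adjusted p = 5.52e-06). Errfi1, an inhibitor of the EGF receptor, rose by 1.13 ± 0.057 and Spry4 by 0.87 ± 0.062. The Ras GTPase-activating protein genes Rasal2 and Rasa1 rose by 0.64 ± 0.067 and 0.57 ± 0.058. Rcan1, an inhibitor of the calcium-dependent phosphatase calcineurin and a target of NFAT, read 8.19 and 8.30 on the PBS arrays and 10.66 and 10.76 on the Ang II arrays, an increase of 2.47 ± 0.063 (adjusted p = 1.35e-06). Nfatc2 itself rose by 0.97 ± 0.073 on its brightest probe set, and its other probe set was not called at -0.029.

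The promoter stretches below are shown as 6 examples of raised genes that hold whole recognition elements of the transcription factors named above; Egr1 (2 CArG boxes) and Olr1, Fam110c and Serpinb2 (AP-1 sites) hold such elements too and are not printed. They are the bases before the annotated start, 5′ to 3′ on the gene's strand, from the RefSeq promoter table of build GRCr8, with capitals marking CArG boxes (the sites of serum response factor), the cyclic AMP response element TGACGTCA or the AP-1 site TGANTCA.
Egr2, chr20:21054495-21054544, minus strand, CArG box: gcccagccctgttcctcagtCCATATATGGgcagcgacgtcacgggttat
Dusp5, chr1:262543672-262543731, plus strand, 2 adjoining CArG boxes: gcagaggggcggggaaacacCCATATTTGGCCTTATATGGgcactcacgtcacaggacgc
Plaur, chr1:89181260-89181306, plus strand, AP-1 site: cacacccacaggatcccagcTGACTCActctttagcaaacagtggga
Rcan1, chr11:45118352-45118463, minus strand, cyclic AMP response element and AP-1 site: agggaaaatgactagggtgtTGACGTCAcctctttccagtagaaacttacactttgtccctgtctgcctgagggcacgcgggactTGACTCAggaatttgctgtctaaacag
Flt1, chr12:12333286-12333333, plus strand, cyclic AMP response element: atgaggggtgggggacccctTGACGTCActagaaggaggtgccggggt
Lmcd1, chr4:146948781-146948828, plus strand, cyclic AMP response element: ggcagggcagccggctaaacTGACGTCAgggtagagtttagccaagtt
In the whole windows of 250 bases before to 50 after the start, searched on both strands, a CArG box was found in 6 of 151 raised genes with an entry (3.97%) and in 1.33% of the 9459 genes tested that have one. A kB site, bound by NF-kB, was found in 11.3% of the raised genes against 5.12%, TGACGTCA in 5.96% against 3.25%, and TGANTCA in 6.62% against 4.95%. The core TGACG, part of TGACGTCA, was found in 35.1% against 32.0%, the Egr sites GCGTGGGCG or GCGGGGGCG in 9.27% against 6.26%, and the interferon-stimulated response element in 2.65% against 2.91%. Of 31 lowered genes with an entry, none held a CArG box or a kB site, and 6 (19.4%) held the E-box CACGTG, against 12.6% of raised and 9.54% of all genes. These are matches of letters, with no test.

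Ligands and growth factors made up the next group of increases. Hbegf, an EGF receptor ligand that Ang II signalling releases from the cell surface, read 7.73 and 7.77 on the PBS arrays and 9.48 and 9.55 on the Ang II arrays, an increase of 1.77 ± 0.057 or 3.4-fold (adjusted p = 3.81e-06). The related ligands Areg and Ereg rose by 0.90 ± 0.12 (from a siGiver PBS mean below the filter of 4.81) and 0.76 ± 0.068, and the receptor gene Egfr by 0.37 ± 0.047. Of 24 other growth factors 9 rose and 2 fell (median 0.21). Bmp2, a bone morphogenetic protein, read 4.55 and 4.59 on the PBS arrays and 6.49 and 6.18 on the Ang II arrays (difference 1.76 ± 0.13), and its PBS values lay below the filter of 4.81, so the fold change rests on a level near background. A second Bmp2 probe set gave 1.66, called higher. Tgfb3 rose by 0.81 ± 0.042, Pdgfa by 0.70 ± 0.043 and the activin subunit gene Inhba by 0.80 ± 0.051. The activin-binding protein gene Fst rose by 1.48 ± 0.058. Vegfa (-0.0022) and Hgf (0.21) were not called.

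The BMP and TGF-beta list held increases and decreases, 8 and 3 of 25. Id3, a BMP-induced inhibitor of helix-loop-helix factors, rose by 0.74 ± 0.054. Its relative Id2 read 6.50 and 6.61 on the PBS arrays and 5.78 and 5.79 on the Ang II arrays, a fall of 0.77 ± 0.074 (adjusted p = 0.00059). Smad9, a signal transducer of BMP receptors, read 6.18 and 5.84 on the PBS arrays and 5.29 and 5.13 on the Ang II arrays, a fall of 0.80 ± 0.13 (adjusted p = 0.00693). The PBS arrays of Smad9 lay further apart than its Ang II arrays, and the treatments did not overlap. Tgfbr1, the type I TGF-beta receptor gene, rose by 0.43 ± 0.057 (second probe set 0.27, not called), and Bmp4 fell by 0.27, a call lost without any 1 of 3 arrays.

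Genes of the plasminogen system and coagulation were raised. Serpinb2, an inhibitor of plasminogen activators, read 4.99 and 5.10 on the PBS arrays and 7.84 and 7.91 on the Ang II arrays, an increase of 2.83 ± 0.096 or 7.09-fold (adjusted p = 4e-06). Plaur, the urokinase receptor, read 8.67 and 8.62 on the PBS arrays and 10.44 and 10.45 on the Ang II arrays, an increase of 1.80 ± 0.062 (adjusted p = 4e-06), and its dim second probe set was not called at 0.23. Plat, the tissue plasminogen activator gene, rose by 1.02 ± 0.068, tissue factor (F3) by 0.82 ± 0.045 and the matrix protease gene Adamts1 by 0.89 ± 0.064. Of 22 measured members of the list, 7 rose and 2 fell, with a median of -0.0036. Adamts15 fell by 0.51 ± 0.063, and Mmp2 (-0.03) and Plau (0.15) were not called.

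Of 13 measured genes of prostaglandin synthesis and its receptors 2 rose and none fell, a share near that of all genes called, with a list median of -0.02. Ptgs2, the inducible cyclooxygenase, read 9.89 and 10.09 on the PBS arrays and 12.21 and 12.13 on the Ang II arrays, an increase of 2.18 ± 0.088 or 4.54-fold (adjusted p = 6.49e-06). Pla2g4a, the phospholipase that frees arachidonic acid, rose by 0.43 ± 0.042, and the other 11, Ptges and Ptgis among them, were not called.

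Inflammatory signalling genes rose in part. Olr1, a scavenger receptor for oxidised lipoprotein, read 5.38 and 5.32 on the PBS arrays and 7.98 and 7.78 on the Ang II arrays, an increase of 2.53 ± 0.096 or 5.79-fold (adjusted p = 5.22e-06). Among 15 chemokines and related receptors 8 rose and 2 fell. Cxcl2 rose by 1.27 ± 0.091, Ccl20 by 0.93 ± 0.057, Cxcl1 by 0.65 ± 0.050 and Ccl2, the monocyte attractant, by 0.35 ± 0.045. Il6, an inflammatory cytokine, read 8.04 and 8.0 on the PBS arrays and 8.71 and 8.71 on the Ang II arrays, an increase of 0.69 ± 0.045 (adjusted p = 8.05e-05). Clcf1, a cytokine of the same family, rose by 1.19 ± 0.12, and Tnf was not called on its brightest probe set (-0.10), while a dimmer one was called higher at 0.37.

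In the list of NF-kB feedback genes and adhesion molecules 11 of 17 rose and none fell (median 0.22). The largest increases were those of the inhibitory enzyme gene Tnfaip3 (0.74 ± 0.044), Tnfaip2 (0.70 ± 0.048) and Nfkbiz (0.66 ± 0.051), and the adhesion molecule gene Icam1 rose by 0.56 ± 0.044. Dimmer probe sets of Nfkbiz (-0.16) and Tnfaip2 (-0.19) were not called, and 2 further ones of Tnfaip2 were called higher. With a siGiver array left out the number higher was between 6 and 8. Nfkbia, the classical inhibitor, stood at 0.01 and was not called.

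Further large increases fell in no common list. Fam110c, a gene of a family of microtubule-associated proteins, read 4.63 and 4.54 on the PBS arrays and 7.64 and 7.63 on the Ang II arrays (difference 3.05 ± 0.10), and its siGiver PBS mean lay below the filter. Tcim, a regulator of Wnt signalling, rose by 2.14 ± 0.079 and Klhl41, which encodes a sarcomere-associated Kelch protein, by 1.79 ± 0.12. The protocadherin gene Pcdh18 rose by 1.68 ± 0.098 and Lmcd1, a transcriptional cofactor gene, by 1.67 ± 0.062. Flt1 read 6.80 and 6.90 on the PBS arrays and 8.68 and 8.57 on the Ang II arrays, an increase of 1.77 ± 0.055 (adjusted p = 3.14e-06), with a further probe set at 1.93 and a dim one not called at 0.16. Hk2, a hexokinase gene, rose by 1.53 ± 0.12, and Trib2, a pseudokinase gene, by 1.64 ± 0.069. Nppb, which encodes a natriuretic peptide, and Sphk1, whose enzyme makes sphingosine 1-phosphate, were chosen after their values were seen and rose by 1.01 ± 0.066 and 1.08 ± 0.073.

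**Figure D3:**
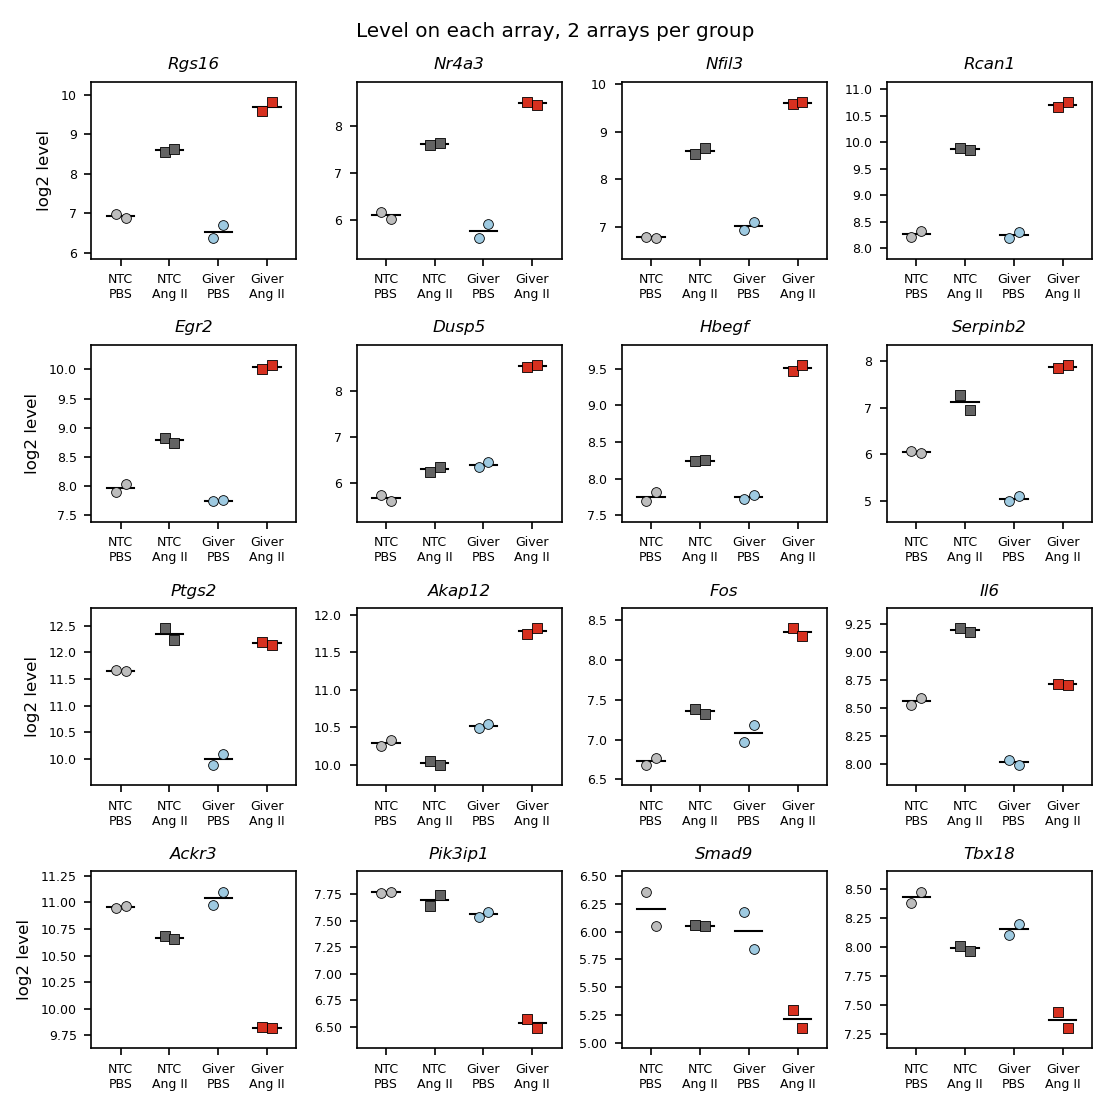
Log2 level of 16 genes on each of the 8 arrays, 2 per group, with the group mean as a line; each panel has its own y axis, which does not start at 0. In siGiver cells the Ang II arrays of the first 12 genes lie above the PBS arrays and those of the last 4 (Ackr3, Pik3ip1, Smad9 and Tbx18) below them.

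Transcription factors of vascular cells, transporters, ribosome biogenesis genes and heat shock genes showed smaller increases. Of 37 measured transcription factors 12 rose and 3 fell (median 0.20). Runx1 rose by 0.94 ± 0.052, the Ets-family genes Etv4, Ets1 and Etv5 by 0.76 ± 0.089, 0.75 ± 0.048 and 0.59 ± 0.056, and Twist1 by 0.72 ± 0.053. Other probe sets of Etv4 (0.26) and Twist1 (0.52) were called higher, and that of Etv5 (-0.19) was not called. Among transporters of amino acids, glucose and phosphate 10 of 22 rose and 1 fell, led by the arginine transporter gene Slc7a1 (0.93 ± 0.057). Of 32 ribosome biogenesis genes 10 rose and none fell (median 0.16), among them Gar1 (0.50 ± 0.045) and Rrs1 (0.48 ± 0.057). Of 20 heat shock genes 9 rose and 1 fell. Hspa1a, an inducible Hsp70 gene, rose by 0.87 ± 0.065, Hspb6 fell by 0.17 ± 0.046 (lost whichever array was left out), and with a siGiver array left out the number higher was 4 or 5. Of 31 glycolysis and hypoxia genes 5 rose and 1 fell (median 3e-04). Of 22 cholesterol genes 2 rose and 5 fell (median -0.03), and 1 to 3 fell with a siGiver array left out.

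The 3 largest falls were those of Ackr3, Fgf16 and Pik3ip1. Ackr3, an atypical receptor that takes up the chemokine Cxcl12, read 10.97 and 11.10 on the PBS arrays and 9.83 and 9.82 on the Ang II arrays, a fall of 1.21 ± 0.053 (adjusted p = 9.81e-06). Fgf16, a fibroblast growth factor gene, read 6.16 and 6.03 on the PBS arrays and 4.51 and 5.28 on the Ang II arrays, a fall of 1.2 ± 0.21 (adjusted p = 0.00855), and this call was lost without siGiver PBS replicate 1 (adjusted p = 0.0545). Pik3ip1, which encodes an inhibitor of phosphoinositide 3-kinase, read 7.54 and 7.58 on the PBS arrays and 6.58 and 6.49 on the Ang II arrays, a fall of 1.03 ± 0.055 (adjusted p = 2.92e-05). On the scale centred on the poly-A controls these 3 genes stayed lower, at -0.62, -0.61 and -0.44.

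Pik3ip1 belonged to a list of 26 FoxO targets and growth restraint genes, of which 7 fell and 3 rose (median -0.11). Sesn1, a stress-induced restrainer of mTORC1, read 6.57 and 6.55 on the PBS arrays and 5.89 and 5.80 on the Ang II arrays, a fall of 0.71 ± 0.061 (adjusted p = 0.000304), while a dimmer probe set was not called at -0.22. Ccng2, an atypical cyclin tied to cell cycle exit, read 9.68 and 9.79 on the PBS arrays and 9.04 and 9.03 on the Ang II arrays, a fall of 0.70 ± 0.056 (adjusted p = 0.000221). Pdk4 fell by 0.58 ± 0.075 (a dim second probe set not called at 0.05), Foxo3 by 0.44 ± 0.055 and Txnip by 0.31, the last call being lost without siGiver Ang II replicate 1. Cdkn1b, which encodes the cell cycle inhibitor p27 and belongs to the list of G1 genes, fell by 0.50 ± 0.059, with a second probe set at -0.83. The members of the FoxO list that rose were Trib2, Trib1 (1.15 ± 0.11) and Cited2 (0.22, lost without any 1 siGiver array); both Tribbles genes encode pseudokinases. Centring on the poly-A controls left Sesn1 at -0.12 and Ccng2 at -0.11, neither called.

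Single transcription factor genes were also lower, although of the 37 transcription factors of vascular cells 3 fell, near the share over all genes. Tbx18, a T-box factor of mural cells, read 8.11 and 8.20 on the PBS arrays and 7.43 and 7.30 on the Ang II arrays, a fall of 0.79 ± 0.065 (adjusted p = 0.00025). Klf15, a Kruppel-like factor, fell by 0.79 ± 0.057 (a dim second probe set not called at -0.24), while Klf6 rose by 0.67 ± 0.044. Sox4 fell by 0.60 ± 0.047, and its 6 other probe sets had differences between -0.77 and -0.16, 5 of them called lower. In the Wnt list 7 of 21 fell and 1 rose (median -0.10), including the Frizzled receptor genes Fzd2 (-0.58), Fzd1 (-0.42) and Fzd8 (-0.36) and the coreceptor gene Lrp6 (-0.38). The Notch ligand gene Jag1 fell by 0.60 ± 0.046; of 17 Notch pathway genes 3 fell and 1 rose, and 1 or 2 fell with a siGiver array left out.

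Sash1, which encodes a scaffold protein, fell by 0.81 ± 0.049, Lurap1l by 0.89 ± 0.099 and Rnf122, a ubiquitin ligase gene, by 0.81 ± 0.054. Rwdd2a, Cdc42ep2, Flrt3, Mgll, Rpp25, Il15, Zfp874b, Mxi1 and Ccdc62 fell by between 0.65 and 0.76. Among them, Mgll encodes a lipase of monoacylglycerols, Il15 a cytokine and Mxi1 an antagonist of Myc, and a dimmer Mxi1 probe set was not called at -0.14. Other Mgll probe sets gave smaller differences of -0.27, -0.34 and -0.32, the last not called. Bod1l1 (-0.77), Zfp292 (-0.67), Fbxl17l1 (-0.66) and Dedd2 (-0.65) were also among the 25 largest falls, and each lost its call on leaving out any 1 of at least 2 arrays. The siGiver Ang II means of Rwdd2a and Fbxl17l1 lay below the filter.

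The Ang II receptor gene Agtr1a read 10.04 and 10.06 on the PBS arrays and 9.51 and 9.53 on the Ang II arrays, a fall of 0.53 ± 0.046 (adjusted p = 3e-04). In siNTC cells its difference was -0.67, and the interaction, 0.14 ± 0.064, was not called (limma adjusted p = 0.251). Centred on the poly-A controls its siGiver difference was 0.06, not called. Nox1, an oxidase gene of these cells whose product makes superoxide, read 7.01 and 6.94 on the PBS arrays and 7.47 and 7.37 on the Ang II arrays, an increase of 0.44 ± 0.056 (adjusted p = 0.00205), and the other 5 measured NADPH oxidase genes were not called. Avpr1a, a vasopressin receptor gene, rose by 0.66 ± 0.071, and Edn1, the endothelin precursor gene, by 0.39 ± 0.055.

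Structural and housekeeping genes of the cells moved little. Acta2, smooth muscle actin, read 11.84 and 11.82 on the PBS arrays and 11.89 and 11.87 on the Ang II arrays and was not called (0.04 ± 0.044, adjusted p = 0.523). Of 24 contractile genes 4 rose (Smtn, Vcl, Cnn1 and Ppp1r12b, by at most 0.36) and 1 fell (median 0.07), and with a siGiver array left out at most 1 was called higher, none of the 4 keeping its call throughout. Synpo2 fell by 0.33 ± 0.054 on its brightest probe set, and its others disagreed: 1 was called higher at 0.40, and those at 0.13 and -0.33 were not called. Dimmer probe sets of Smtn (0.18) and Vcl (0.08) were not called, and another of Vcl was called higher at 0.54. None of 28 cytosolic ribosomal protein genes was called by limma, with 1 at an unadjusted p under 0.05, and of 40 oxidative phosphorylation genes Uqcrc2 was called (-0.16, lost without any 1 of 6 arrays). Both Ang II arrays lay below both PBS arrays for 24 of the 28 and 36 of the 40, against 35.7% of all genes. The medians were small, at -0.04 and -0.08, and other settings called between 0 and 12 of the 40 lower. Of 34 S phase and mitosis genes 6 fell and none rose (median -0.10), and with a siGiver array left out the number lower was 1 or 2, while Nusap1 (-0.28; second probe set -0.11, not called) kept its call. Among 21 collagen genes Col12a1 rose by 0.32 ± 0.046 (a dim second probe set not called at 0.10), Col5a1 rose by 0.18 (lost whichever array was left out) and Col8a2 fell by 0.40 ± 0.078 (lost without any 1 of 3 arrays). The matrix genes Ccn1 and Tnc rose by 1.14 ± 0.070 and 1.08 ± 0.046, and the integrin subunit gene Itga5 by 0.71 ± 0.073.

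**Figure D4:**
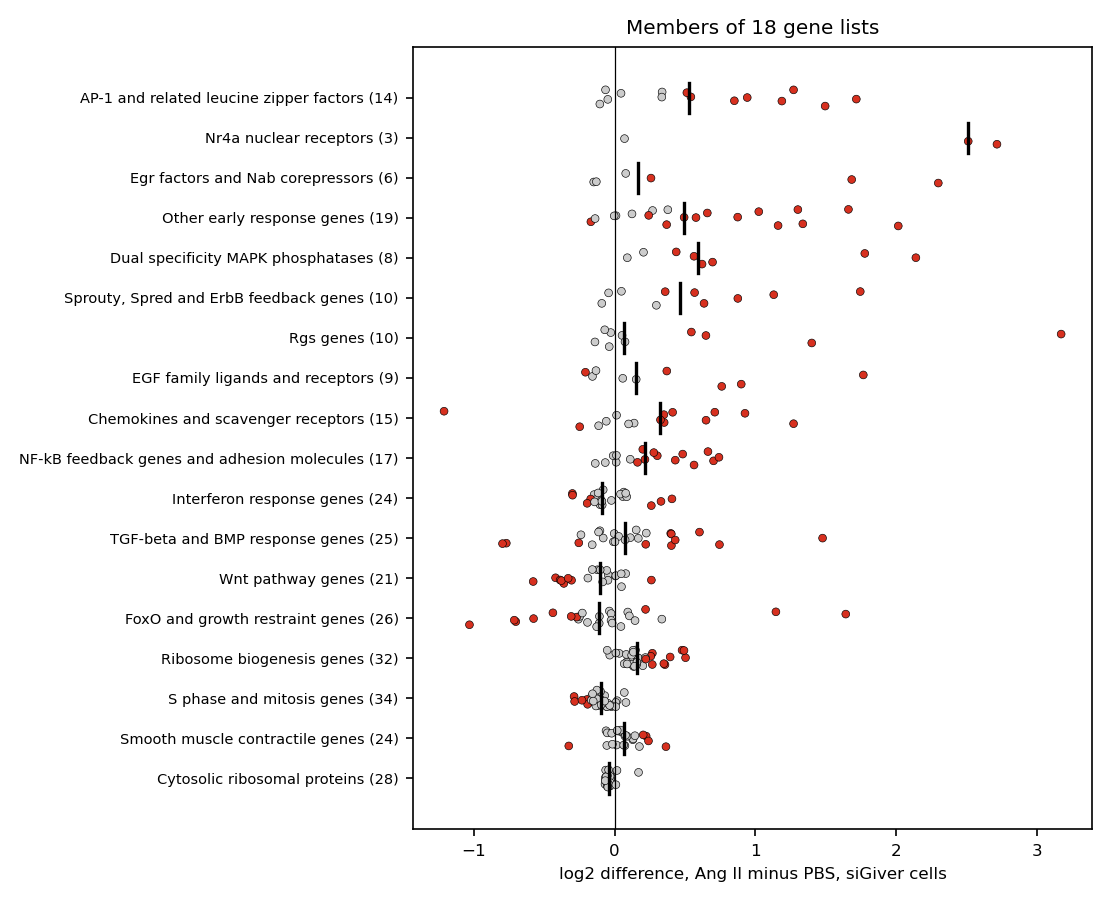
Difference between Ang II and PBS in siGiver cells (log2, x axis) for each measured member of 18 gene lists (y axis, number of measured members in brackets), red where called and grey where not, with the list's median as a black bar. The median of the Nr4a list lies at 2.51 and that of the dual specificity phosphatases at 0.59, while that of the ribosomal protein genes lies at -0.039.

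The response in siGiver cells was set against that in siNTC cells through the interaction, the siGiver difference minus the siNTC difference, which called 707 genes (6.21%), 381 positive (3.35%) and 326 negative (2.87%). With any 1 array left out it called between 356 (without siNTC Ang II replicate 1) and 435 genes (without siGiver PBS replicate 2). Of the 192 raised genes, 181 had the same sign in siNTC cells and 111 (57.8%) were called higher there too, against 3.96% of all genes. Their median difference was 0.83 in siGiver cells and 0.30 in siNTC cells. The interaction was called positive for 159 of the 192 (82.8%) and negative for none. These genes were chosen on the siGiver difference, which is also a term of the interaction, so this count is a description. Of the 36 lowered genes, 28 had the same sign in siNTC cells and 5 (13.9%) were called lower there, against 2.17% of all genes. The interaction was called negative for 23 of them (63.9%), and with poly-A centring it kept its sign for 11 of the 36 lowered and 189 of the 192 raised genes. Such centring adds the same positive amount to every interaction, so a positive one could not turn. That centring called 10996 interactions positive and 15 negative and moved the median interaction of all genes from -0.022 to 0.66.

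**Figure D5:**
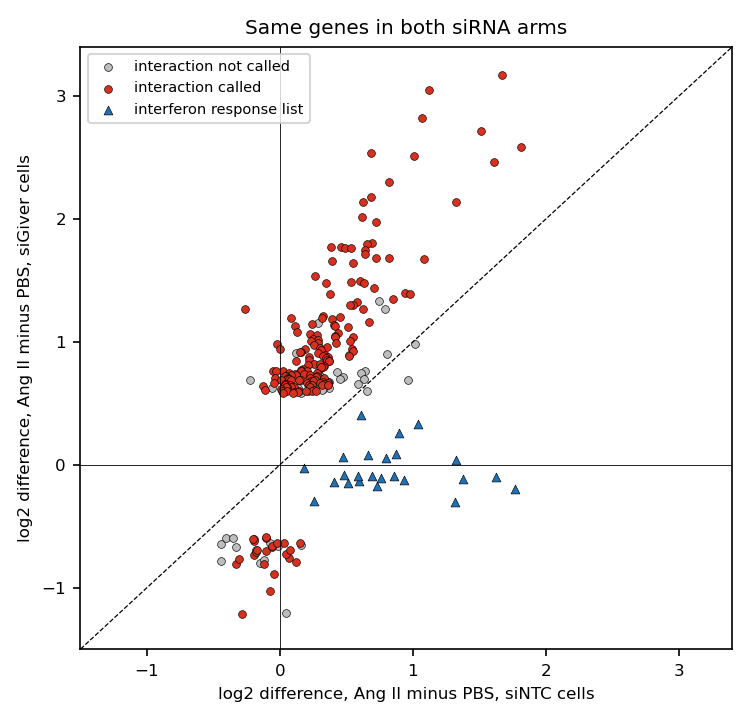
Difference between Ang II and PBS in siGiver cells (log2, y axis) against that in siNTC cells (log2, x axis) for the 192 raised and 36 lowered genes (circles, red where the interaction was called) and the 24 measured interferon response genes (triangles), with equality as a dashed line. The raised genes lie mostly above the line, with medians of 0.83 and 0.30, and the interferon genes lie near 0 on the y axis and at a median of 0.75 on the x axis.

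Among raised genes the siGiver arm had a higher level with Ang II more often than a lower level with PBS. With Ang II, both siGiver arrays lay above both siNTC arrays for 156 of the 192 genes (81.2%), against 31.6% of all genes tested. With PBS, both siGiver arrays lay below both siNTC arrays for 100 genes (52.1%), against 35.6%. These counts use the arrays that chose the genes and were not tested. Dusp5 had the higher Ang II level: its siNTC levels were 5.74 and 5.60 on the PBS arrays and 6.24 and 6.34 on the Ang II arrays, and the interaction was 1.52 ± 0.094 (limma adjusted p = 0.000366). Its siGiver PBS arrays, at 6.34 and 6.45, also lay above its siNTC PBS arrays. Ptgs2 had the lower PBS level, with siNTC levels of 11.66 and 11.65 on the PBS arrays and 12.45 and 12.23 on the Ang II arrays (interaction 1.5 ± 0.12, limma adjusted p = 0.00083). The siGiver PBS arrays of Ptgs2 lay far below the siNTC PBS arrays, and its Ang II arrays in the siGiver arm lay just below those in the siNTC arm. Serpinb2 had both, a lower PBS level and a higher Ang II level, its siNTC levels being 6.06 and 6.02 on the PBS arrays and 7.26 and 6.96 on the Ang II arrays (interaction 1.76 ± 0.14, limma adjusted p = 0.000677).

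Akap12, a scaffold for protein kinases A and C, was the 1 raised gene called in the opposite direction in siNTC cells. It read 10.49 and 10.54 on the PBS arrays and 11.75 and 11.82 on the Ang II arrays in siGiver cells, an increase of 1.27 ± 0.051 (adjusted p = 6.49e-06). In siNTC cells it read 10.26 and 10.32 on the PBS arrays and 10.05 and 10.00 on the Ang II arrays, a difference of -0.26 (limma adjusted p = 0.0271). The arrays of both arms were separated by treatment, in opposite order, and the interaction was 1.53 ± 0.072 (limma adjusted p = 0.000312). A second Akap12 probe set gave 1.33 in siGiver cells.

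For some raised genes no difference in the Ang II response between the arms was detected. The interaction was 0.0042 ± 0.079 for Nox1 (limma adjusted p = 0.981), 0.07 ± 0.064 for Il6 (adjusted p = 0.598) and 0.07 ± 0.063 for Ccl2 (adjusted p = 0.566). For the ligand genes Areg, whose siGiver PBS mean lay below the filter, and Ereg it was 0.09 ± 0.17 and 0.12 ± 0.096, also not called. Il6, Nox1 and Ccl2 had lower levels in siGiver cells with either treatment. The siNTC levels of Il6 were 8.53 and 8.59 on the PBS arrays and 9.21 and 9.17 on the Ang II arrays. Those of Nox1 were 8.50 and 8.48 with PBS and 8.97 and 8.88 with Ang II. Ccl2 read 13.36 and 13.38 with PBS and 13.68 and 13.63 with Ang II in siNTC cells. In siGiver cells it read 12.99 and 13.03 with PBS and 13.38 and 13.35 with Ang II.

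Interferon response genes, which siNTC cells raised with Ang II, showed no such increase as a list in siGiver cells. Of 24 measured members 3 rose and 4 fell in siGiver cells (9.11% and 7.17% of all genes did), with a median of -0.09. In siNTC cells 22 rose and none fell (3.96% and 2.17% of all genes did), with a median of 0.75. The interaction was called negative for 21 and positive for none, beside 2.87% and 3.35% of all genes. Mx1, an antiviral GTPase, read 9.25 and 9.28 on the PBS arrays and 9.02 and 9.12 on the Ang II arrays in siGiver cells and 9.32 and 9.31 on the PBS arrays and 11.11 and 11.06 on the Ang II arrays in siNTC cells. Its interaction of -1.96 ± 0.070 (limma adjusted p = 8.15e-05) was the most negative of all genes called, and its small siGiver fall (-0.19) was lost whichever array was left out. Cxcl9, a chemokine gene induced by interferon gamma, read 5.06 and 4.96 on the PBS arrays and 4.63 and 4.79 on the Ang II arrays in siGiver cells and 5.73 and 5.62 on the PBS arrays and 7.01 and 6.97 on the Ang II arrays in siNTC cells. Its siGiver fall (-0.30) was lost without any 1 of 3 arrays, and a dim second probe set was not called at 0.16. The 3 that rose in siGiver cells were Ifih1, Oasl (0.33) and Cxcl10 (0.26), and the 4 that fell were Mx1, Cxcl9, Irf7 (-0.17) and Ifi44 (-0.30). The calls of Cxcl10, Irf7 and Ifi44 were also lost on leaving out single arrays, and that of Oasl was kept. Ifih1, an RNA sensor gene, rose by 0.41 ± 0.059, and its interaction of -0.20 ± 0.083 was not called (limma adjusted p = 0.197). Centred on the poly-A controls, the siGiver difference of Mx1 turned to 0.40 and that of Cxcl9 to 0.29, and their interactions stayed negative at -1.28 and -0.93.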

How the data were processed

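RNA of 8 samples was hybridised to Affymetrix rat arrays, and the deposited values are log2 signals of 31099 probe sets, made by the authors with RMA and Partek per the submitters' processing notes; for either, no version is given in the sources used here. Such normalization sets all arrays to 1 distribution, so a change shared by all genes cannot appear. Probe sets were named through the platform annotation, with symbols updated by gene ID for 20758. Of all probe sets 20826 had 1 symbol, 436 several and 9780 were not listed, and 57 were controls.

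Each symbol was represented by its brightest probe set, kept where the mean passed the 30th percentile (4.81 log2), which left 11377 genes. The test was limma (3.58.1, R 4.3.3; lmFit and eBayes) on log2 values with 1 mean per group, checked on simulated data, with 3 contrasts (the siGiver response, the siNTC response and their difference), Benjamini-Hochberg adjusted over all genes. It left 4 residual and 3.53 prior degrees of freedom. Arrays have no read depth, and 2 arrays per group limit the precision.

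Named were, per direction, the 25 genes with the largest siGiver difference among those called without overlap of arrays, and the 10 with the largest interaction among genes called in both. Acta2, Agtr1a, Ccl2, Egr1, Fos, Il6, Nox1, Nr4a3 and Tnf were always given, and members of the lists as needed. Clone names and symbols starting LOC or RGD were skipped. Of 1129 genes in 52 lists (6 of them of cell type markers), 900 were tested and 106 lay below the filter. The members and lists were chosen with earlier results of these data known.

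Samples of the same number showed no common deviation (r = -0.0655 between the siGiver groups and -0.00105 between the siNTC groups). Over all pairs of groups r lay between -0.172 and 0.0961, so the numbers were not used as a block. Alternatives were other filters, probe set rules, normalizations and moderations, the block, 1 arm alone, stricter calls, each array left out, and centring on the poly-A controls, the last added after seeing the data.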

Additional observations from a re-analysis of the deposited data

Results flagged for a closer look

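Of 65 genes named, 50 had an Ang II response that differed between siGiver and siNTC cells by limma's interaction, 27 with a positive and 23 with a negative difference. Most were named because their siGiver response was large, and that response is also a term of the interaction. All values are the siGiver minus the siNTC difference in log2 units.

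Signalling inhibitors and early transcription factors with a larger increase in siGiver cells were Rgs16 (1.5), Dusp5 (1.52), Dusp6 (1.39), Spry2 (1.10), Rcan1 (0.86), Nr4a1 (1.5), Nr4a3 (1.2), Egr2 (1.48), Egr1 (0.96), Fosl1 (1.07), Fos (0.64) and Nfil3 (0.77). Secreted factors, receptors and enzymes of the same direction were Serpinb2 (1.76), Plaur (1.11), Olr1 (1.85), Ptgs2 (1.5), Hbegf (1.28), Bmp2 (1.23), Flt1 (1.31), Sgk1 (1.40) and Noct (1.25). The others were Fam110c (1.93), Tcim (0.81), Klhl41 (1.14), Pcdh18 (0.86) and Lmcd1 (0.59). Akap12 (1.53) rose in siGiver cells and fell in siNTC cells.

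Genes that fell more in siGiver cells, or fell there alone, were Ackr3 (-0.92), Pik3ip1 (-0.95), Klf15 (-0.90), Lurap1l (-0.85), Rwdd2a (-0.83), Flrt3 (-0.77), Rpp25 (-0.77) and Rnf122 (-0.69). Smaller differences of this kind were those of Zfp874b (-0.61), Mxi1 (-0.60), Ccng2 (-0.60), Cdc42ep2 (-0.55), Sesn1 (-0.53), Il15 (-0.52), Sash1 (-0.48) and Id2 (-0.46). Genes called lower in siGiver cells and higher in siNTC cells were Mx1 (-1.96), Cxcl9 (-1.61), Ifi27l2b (-1.24), Tmem140 (-1.06), Rtp4 (-1.04), Cyp27a1 (-1.01) and Irf7 (-0.90). The siGiver fall of Ifi27l2b (-0.30) lost its call without any 1 siGiver array. Those of Mx1, Cxcl9 and Irf7 were, as given above, also lost on leaving out single arrays.

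When each array was left out in turn, 41 of the 50 interactions kept their call. Those of Pcdh18 (without siNTC PBS replicate 1) and Zfp874b (without siNTC Ang II replicate 1) were lost on leaving out that array alone, and those of Fos, Lurap1l, Id2, Cdc42ep2, Sesn1, Il15 and Mxi1 were lost without any 1 of several arrays. Centring on the poly-A controls turned the sign for Sash1, Id2, Cdc42ep2, Sesn1, Ccng2, Il15, Zfp874b and Mxi1. On that scale the interactions of Ackr3 (-0.245), Pik3ip1 (-0.274), Klf15 (-0.226), Lurap1l, Rwdd2a, Flrt3, Rpp25, Rnf122 and Irf7 stayed negative but were not called. Those of Mx1, Cxcl9, Ifi27l2b, Tmem140, Rtp4 and Cyp27a1 stayed negative and called.

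The poly-A control probe sets, which no comparison of genes uses, averaged 0.441 higher (log2) on the siGiver PBS arrays than on the siNTC PBS arrays. They are added in a set amount before labelling, and the source of the difference was not tested.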

How the results depend on the processing

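The call counts moved with the strictness of the test. For the siGiver response, 1852 genes were called against 2802 with trended and robust moderation, 1211 with the siGiver arrays alone, 749 at an adjusted p under 0.01 and 252 with limma's treat against 1.2-fold. Higher calls (1036) numbered 526 and 216 under the latter pair, and lower calls (816) 1335, 467, 223 and 36 in that order and 539 without a filter. The 36 lowered by 1.5-fold or more became 23 with treat. The interaction's 707 calls became 467 without a filter and 1490 with trended moderation, and the 698 siNTC calls became 420, 1496, 1066 with a filter at the 50th percentile and 422 with the siNTC arrays alone.

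With 1 array left out, siGiver calls ranged from 866 to 1740, higher calls from 549 to 988 and lower calls from 317 to 752. Those of 1.5-fold or more ranged from 185 to 203 higher and from 33 to 62 lower. Interactions ranged from 356 to 435 and siNTC calls from 226 to 526.

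No pairing was used. With the replicate number as a block, 1603 siGiver responses, 553 interactions and 548 siNTC responses were called.

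Of 1221 planned comparisons of 65 named genes, 1141 kept their side of the threshold and 80 kept the direction alone. No called gene turned, while Tnf, which was not called, ranged from -0.17 to 0.13. Centring on the poly-A controls, which by construction shifts all genes of an array together, gave 11178 siGiver calls (11174 higher, 4 lower; 5052 and 2 at 1.5-fold or more), 11011 interactions and 408 siNTC calls. It turned the siGiver difference of Mx1 (0.40), Cxcl9 (0.29), Ifi27l2b (0.30), Tmem140 (0.01), Rtp4 (0.26), Cyp27a1 (0.31), Irf7 (0.42), Agtr1a (0.057) and Tnf (0.49). The causes of the other changes were not tested. Signal near background limits the fold changes of dim genes such as Bmp2 and Fam110c.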
